A study of Mus musculus with 3 samples.

Results

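The gene spans of Trpm3, Spata5, Bsg, Arhgap21, Peak1 and Stard9 were examined for AGO2-bound RNA in the P19 line, which comes from a mouse embryonal carcinoma. These 6 genes were selected on the presence of peaks of all 4 peak callers used in the study, CIMS, Piranha, Pyicoclip and PIPE-CLIP, in the span of each. They were 6 of the 33 genes with peaks in all 4 lists, so this condition alone does not set them apart from the other 27. Those 33 were 1.28% of the 2583 genes with a peak in any list, 0.066% of the 49997 annotated genes. Among protein-coding genes the share was 0.105%, or 23 of 21900. Since the choice used these counts, they are a description and nothing is read from them. A peak was placed in a span by its midpoint, on either strand. In all, 38 of the 6911 peaks fell in the 6 spans, and CIMS gave 6 of these, Piranha 10, Pyicoclip 12 and PIPE-CLIP 10.

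The RNA was collected by HITS-CLIP, in which RNA is crosslinked to a protein in living cells, pulled down with an antibody and sequenced, here with the anti-AGO2 clone 2D4. All 3 libraries formed 1 group of P19 cells, with no treatment and no control group. The peak lists cover the libraries together, so the depth of each library and the spread between libraries are unknown, and no test between conditions could be made. The lists share their libraries and so do not replicate one another. Positions are in mm10, counted from 1.

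AGO2 holds a microRNA and is guided by it to target RNAs, often near the end of a messenger RNA, where the bound site can lower translation and stability. The 6 genes have no common pathway. Trpm3 encodes a calcium-permeable cation channel, Bsg the membrane glycoprotein basigin, a chaperone of monocarboxylate transporters, and Spata5 an AAA ATPase of ribosome assembly. Arhgap21 encodes a GTPase-activating protein, Peak1 a pseudokinase scaffold at the actin cytoskeleton, and Stard9 a kinesin-like protein of mitosis.

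Trpm3 is also the host of a microRNA gene, Mir204, so AGO2 could in principle be bound within this span through the microRNA itself. The mature forms are shown because they would be the AGO2-held RNAs at that place. They are RefSeq sequences of GRCm38.p6, the assembly of mm10, 5′ to 3′, with the seed (bases 2 to 8) in capitals.
mmu-miR-204-5p: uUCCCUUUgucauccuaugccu
mmu-miR-204-3p: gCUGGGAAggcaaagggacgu
Their positions were chr19:22750610-22750631 and chr19:22750649-22750669, both on the plus strand. The number of peaks on either of them was 0 in the 4 lists together, and the nearest peak of the Trpm3 span was 101 kb away. Mir204 was the single microRNA gene of the RefSeq microRNA table inside the 6 spans. The peaks of Trpm3 described next therefore do not lie on its microRNA.

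The first question was where in each gene the sites lie and on which strand. The strand of a gene was taken from the RefSeq promoter table, which lists Trpm3, Spata5 and Stard9 on the plus strand and Arhgap21 and Peak1 on the minus strand. Bsg has no entry there. Each of the 38 peaks lay in exactly 1 gene span, so no second annotated gene on either strand was at these places. Going by the stretch where the callers gathered, Bsg had its site near the end of the span, read along its peaks. In Trpm3, Spata5 and Peak1 the stretch was inside the gene on its own strand, although Trpm3 also had 1 site on the opposite strand elsewhere. In Arhgap21 and Stard9 the site was inside the gene on the opposite strand. Exons and introns were not used here, so a site inside a gene may be exonic or intronic.

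**Figure D1:**
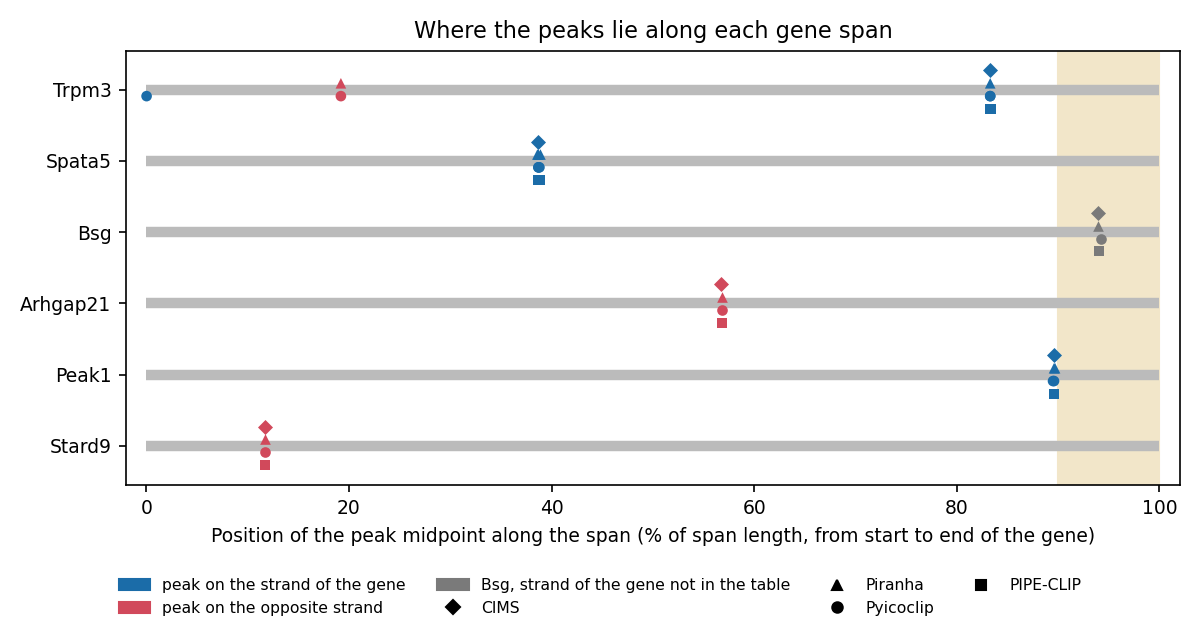
Position of each peak midpoint along its gene span, in percent of the span length from the start to the end of the gene (for Bsg, along the strand of the peaks), with 1 symbol per caller and the last 10% of the span shaded. Peaks at the Bsg site alone reach the shaded part, those of Peak1 stop just short of it at 89.5 to 89.7%, and those of Arhgap21 and Stard9 are on the strand opposite to the gene.

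Bsg had 1 site, at chr10:79711488-79711586, in a span of 7622 nt at chr10:79704358-79711979. All 4 peaks there were on the plus strand. The strand of Bsg is not in the source used for the other genes, so positions are read along the peaks. The site ended 393 nt before the end of the span and its middle lay 94.2% of the way along. Its scores were 40 in CIMS, 13 in Piranha, 46 in Pyicoclip and 27 in PIPE-CLIP. The callers met closely, with 20 nt, chr10:79711501-79711520, common to all 4 peaks. Bsg was the single span of the 6 with a site in the last 10% of its length, and it was also the shortest span.

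Peak1 had 2 neighbouring sites on the minus strand, the strand of the gene. The one with all 4 callers was at chr9:56223714-56223965, and a second, without CIMS, lay at chr9:56223561-56223709, leaving 4 nt between them. The peaks of the first scored 19 in CIMS, 15 in Piranha, 34 in Pyicoclip and 21 in PIPE-CLIP. Those of the second scored 15, 34 and 15 in Piranha, Pyicoclip and PIPE-CLIP, so the Piranha and Pyicoclip scores were equal at both sites. The midpoints lay 89.5 to 89.7% along a span of 217 kb, just outside the last 10%, but the site was still 22.4 kb from the annotated end of the gene. Peak1os, a long non-coding RNA gene on the opposite strand inside the Peak1 span, began 17.4 kb from the nearest peak.

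Trpm3 had 10 peaks, the most of the 6 genes, spread over a span of 858 kb at chr19:22137797-22995410. Of these, 7 made up 1 stretch of 249 nt on the plus strand, the strand of the gene, at chr19:22851929-22852177, or 83.3% along and 143 kb before the end of the gene. The stretch had 2 sites that abut with 0 nt between them. The first, of 108 nt, held the CIMS peak with a score of 10, a Pyicoclip peak of 11 and a PIPE-CLIP cluster of 14. The second, of 141 nt, held a Piranha peak of 23, a Pyicoclip peak of 29 and PIPE-CLIP clusters of 18 and 10. CIMS and Piranha thus did not meet in Trpm3, with 105 nt between their peaks. Away from this stretch, a Pyicoclip peak with a score of 11 lay 141 nt after the start of the span on the plus strand. Another pair, a Piranha and a Pyicoclip peak with a score of 10 each, the lowest in either list, lay on the minus strand at chr19:22302401-22302435. This was the single place of opposite strand among the sites of Trpm3, Spata5 and Peak1.

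Spata5 had 9 peaks in 3 sites within 361 nt, at chr3:37481421-37481781, all on the plus strand, the strand of the gene. They lay 38.6 to 38.9% along a span of 159 kb, 61.5 kb after its start and 97.3 kb before its end. The first site had a CIMS peak of 12, a Piranha peak of 10 and a Pyicoclip peak of 14, and no PIPE-CLIP cluster. The second, 35 nt further on, had scores of 12 in Piranha, 23 in Pyicoclip and 26 in PIPE-CLIP. The third, after another 25 nt, had 11, 16 and 12 in the same lists. The CIMS peak and the nearest PIPE-CLIP cluster were 47 nt apart, so in Spata5, as in Trpm3, no single overlapping place held all 4 callers.

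Arhgap21 had 4 peaks at 1 site, chr2:20900075-20900212, on the plus strand, whereas the gene is on the minus strand. The site lay 56.8% along the span of 121 kb in the direction of the gene, 52.2 kb before its end. Its scores, 56 in CIMS, 25 in Piranha, 58 in Pyicoclip and 37 in PIPE-CLIP, were the highest of the 6 genes in each list. All 4 peaks shared 11 nt, chr2:20900150-20900160. With no other annotated gene at this place, the source of the plus-strand RNA was not identified.

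Stard9 had 4 peaks at 1 site, chr2:120640741-120640807, on the minus strand, whereas the gene is on the plus strand. The site was 11.7 kb after the start of the span, 11.7% along its 99.9 kb. Its scores were 19 in CIMS, 16 in Piranha, 20 in Pyicoclip and 10, the lowest of the list, in PIPE-CLIP. CIMS, Pyicoclip and PIPE-CLIP began at the same base, 120640749, and 12 nt from there were common to all 4 callers. Cdan1, which overlaps the end of Stard9 and is on the minus strand, was 75.3 kb away.

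**Figure D2:**
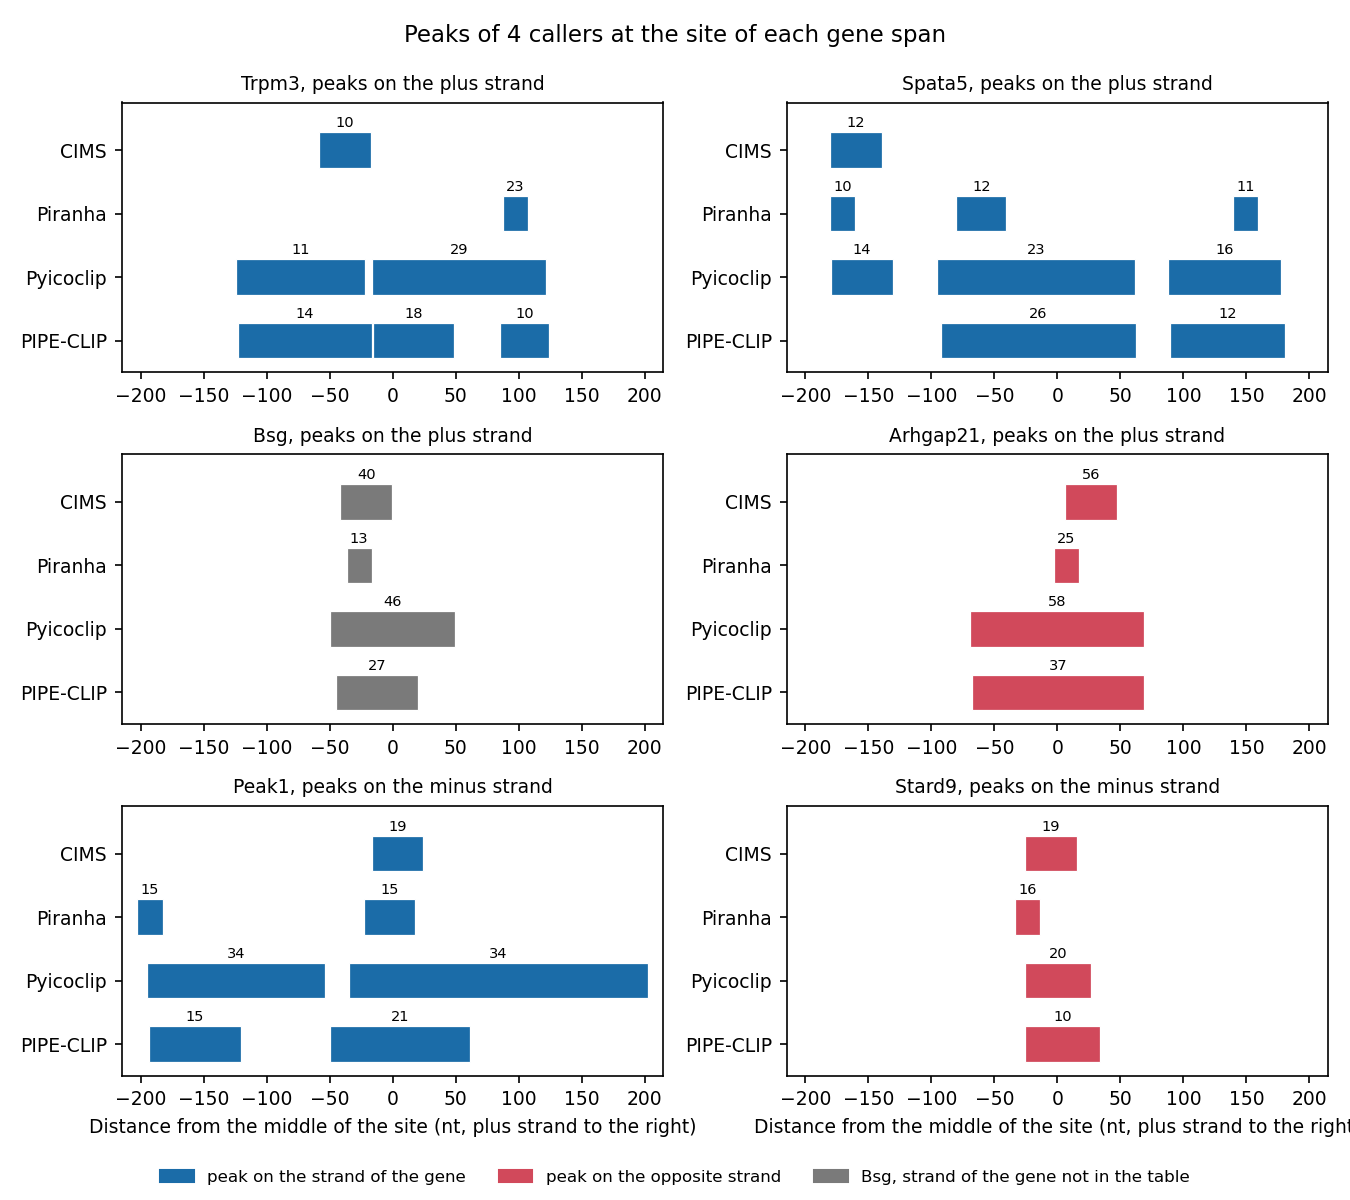
Peaks of the 4 callers at the site of each gene span, as distance in nt from the middle of the site, with the plus strand running to the right and the deposited score above each peak. In Bsg, Arhgap21, Peak1 and Stard9 all 4 callers overlap at 1 place, whereas in Trpm3 the CIMS and Piranha peaks and in Spata5 the CIMS peak and the PIPE-CLIP clusters are apart.

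Merged where they overlapped by at least 1 nt, the 38 peaks formed 12 sites, of which 4 held all 4 callers, 6 held 3, 1 held 2 and 1 held 1. In the whole series 40 of 4617 sites, 0.866%, held all 4 callers. The 4 in these spans were those of Bsg, Arhgap21, Peak1 and Stard9. If sites up to 100 nt apart were joined, all 6 spans had 1 stretch with all 4 callers, and the 6 stretches held 35 of the 38 peaks. They were 67 nt long in Stard9, 99 in Bsg, 138 in Arhgap21, 249 in Trpm3, 361 in Spata5 and 405 in Peak1. Widths differed by caller. Pyicoclip peaks had a median of 101 nt in the 6 spans against 29 nt in the whole list, PIPE-CLIP clusters 82 nt against 85 nt, and both Piranha and CIMS had their list medians of 20 and 41 nt. The whole lists are not limited to genes with all 4 callers, as the 6 spans are. Widths in the other 27 such genes are not given here. None of the 38 peaks fell in a listed promoter window of any gene, 250 nt before to 50 nt after a start.

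Strand was not part of the condition that the genes had to meet, and was set beside that of other genes. Over Trpm3, Spata5, Arhgap21, Peak1 and Stard9, 24 of 34 peaks, 70.6%, were on the strand of the gene. Across all protein-coding spans with a listed strand the share was 85.7%, over 3461 peaks in 1 span each. PIPE-CLIP gave 2100 of the 3461 peaks but 9 of the 34. The 2 pooled shares thus differ in their mix of callers, and the shares by list are the closer comparison. By list, 3 of 5 CIMS, 6 of 9 Piranha, 8 of 11 Pyicoclip and 7 of 9 PIPE-CLIP peaks of the 5 genes were on the gene's strand. In the other protein-coding genes the shares were 71.4% of 35 CIMS, 58.3% of 487 Piranha, 70.8% of 814 Pyicoclip and 98.3% of 2091 PIPE-CLIP peaks. Of the 3257 PIPE-CLIP clusters, 2100 lay in exactly 1 protein-coding span with a listed strand. Among these, 37 were opposite to their gene, 2 of them the clusters in Arhgap21 and Stard9. In 10 other genes with peaks in all 4 lists, 87.0% of 108 peaks and 45 of 49 PIPE-CLIP clusters were on the gene's strand. At sites of all 4 callers in other genes, 73.0% of 37 peaks and 6 of 9 PIPE-CLIP clusters were. Trpm3 and Spata5 have no such site, so those sites match only part of the 5 genes. Peaks without a strand, 137 in the Pyicoclip list, are left out of these shares and of the shares by position. Among the 37 peaks, 5 were from Pyicoclip. PIPE-CLIP clusters at sites of 1 list had 99.4% of 1765 on the gene's strand. A PIPE-CLIP share below the 98.2% of all 2100 clusters was thus also seen outside the 5 genes. Peaks at 1 site share their RNA, so the 34 peaks amount to 11 sites, 72.7% of them on the gene's strand, and the difference from other genes was not tested.

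**Figure D3:**
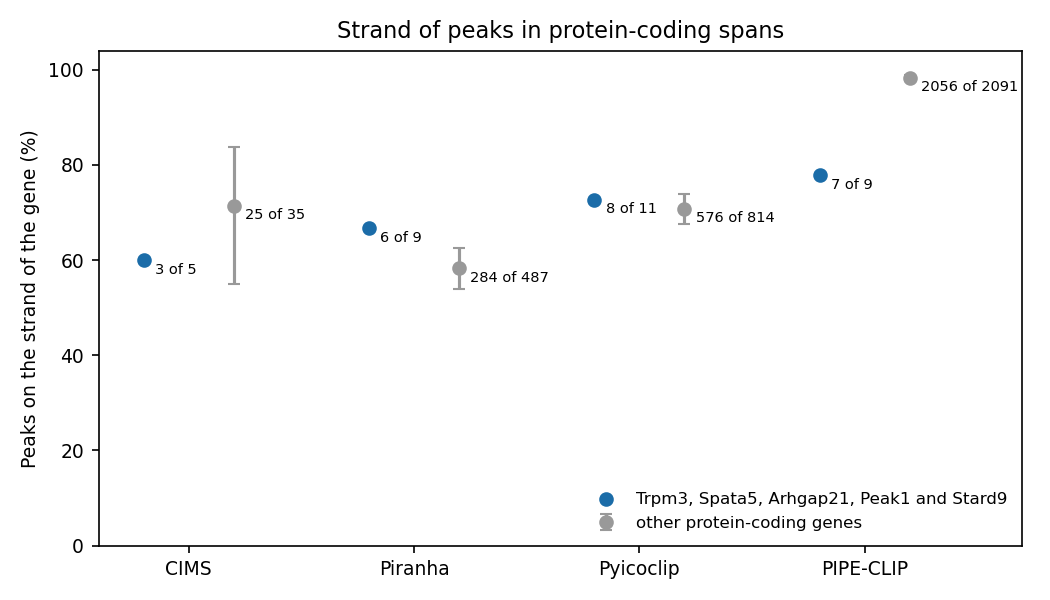
Share of peaks on the strand of the gene, in percent, by caller, for the 5 genes with a listed strand and for other protein-coding genes, with 95% Wilson intervals for the other genes that treat peaks as independent. PIPE-CLIP shows 7 of 9 against 98.3% of 2091. Its clusters in other genes with peaks in all 4 lists had 45 of 49, and those at sites of all 4 callers in other genes 6 of 9. These are not plotted apart.

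Sites of all 4 callers were also set beside those in other genes, which leaves out Trpm3 and Spata5. In single protein-coding spans with a listed strand, 3 such sites were those of Arhgap21, Peak1 and Stard9, of which 1 was on the strand of the gene and 0 in the last 10% of the span. The other 8, in 8 genes, had 6 on the strand of the gene and 4 in the last 10%. The 2 others of opposite strand were in Jarid2 and Zc3h7a, which are named here after their values were seen. None of the 34 peaks of the 5 genes was in the last 10% of its span, where 37.6% of the 3461 peaks of all protein-coding genes lay and 37.9% of the 3427 outside these genes. Of the 3461, the share by list ran from 21.6% in Piranha to 42.4% in PIPE-CLIP. The 34 peaks amount to 11 sites, in spans of 99.9 to 858 kb, and span length was not matched. In 10 other genes with peaks in all 4 lists, the share in the last 10% was 50.9% of 108 peaks. The count for the 5 genes leaves out the 4 Bsg peaks, at 93.9 to 94.2%, since no strand of Bsg is listed. It also rests on the limit of 10%, since 5 of the 12 sites of the 6 spans, in Trpm3, Bsg and Peak1, lay in the last 20%. With so few sites these differences were not tested. PIPE-CLIP clusters of the 6 spans were on the plus strand in 7 of 10, in a list with 13.0% on that strand. The 7 were in Trpm3, Spata5, Bsg and Arhgap21, with more than 1 in the same stretch in Trpm3 and Spata5, and this was not tested either. The whole list is not a like comparison, since the 6 spans also had to hold peaks of the other callers. In other protein-coding genes, 1765 of 2091 PIPE-CLIP clusters were at sites of 1 list. On the plus strand were 49.8% of Piranha peaks and 51.5% of Pyicoclip peaks with a strand. For PIPE-CLIP clusters shared with other callers that share is not given here.

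Scores are the authors' own values and were compared within a list only, as the percentile of the list. The median percentile of the 38 peaks was 69.2%. By list the medians were 41.1% in CIMS, 70.5% in Piranha, 88.9% in Pyicoclip and 66.1% in PIPE-CLIP. These medians only describe genes chosen on peaks in all 4 lists, and the other 27 such genes were not set beside them. Peaks of the same stretch count separately in them. Arhgap21 was high in all 4, from 71.9% in CIMS to 98.0% in Pyicoclip, and Bsg ranged from 62.7% in CIMS to 97.0% in Pyicoclip. Bsg and Arhgap21 were the 2 genes with a peak at or above the list median in each of the 4 lists. Trpm3 had a wide spread, with 5.03% for its CIMS peak and 94.8% for its Piranha peak in the main stretch.

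**Figure D4:**
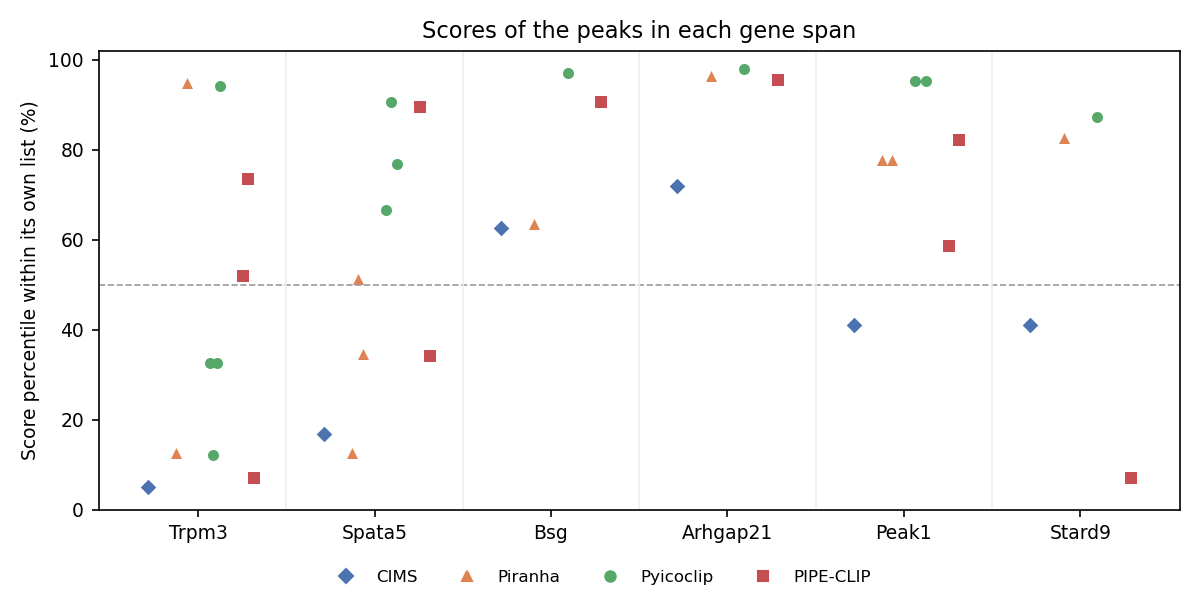
Score percentile of each peak within its own list, in percent, by gene and caller, with the 50th percentile dashed. Arhgap21 and Bsg lie above the line in all 4 lists, and the CIMS peaks of Trpm3, Spata5, Peak1 and Stard9 lie below it.

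Genes just inside the rule held their place by peaks near the floor of 10 that each list has. Trpm3 was in the CIMS list by 1 peak with a score of 10, Stard9 in the PIPE-CLIP list by 1 cluster of 10, and Spata5 in the CIMS list by 1 peak of 12. Just outside, 237 genes had peaks in 3 lists, and 194 of these lacked CIMS, the shortest list with 169 peaks. CIMS names each peak with 2 numbers, k, which equalled the score in all 169, and m. In the naming of that tool k counts the reads over the site and m those with the crosslink-induced mutation. Spata5 had m of 7 in k of 12, or 58.3% (95% Wilson interval 32.0 to 80.7), the highest of the 6. Trpm3 had 3 of 10, or 30.0% (10.8 to 60.3), and Peak1 5 of 19, or 26.3% (11.8 to 48.8). Arhgap21 had 10 of 56, or 17.9% (10 to 29.8), Stard9 3 of 19, or 15.8% (5.52 to 37.6), and Bsg 3 of 40, or 7.5% (2.58 to 19.9). The list median was 15.8%, with quartiles of 6.52 and 27.3%. The interval of Spata5 lies above those of Arhgap21 and Bsg and overlaps the other 3, and the intervals cover counting error only. The lowest m in the list was 3, which is the m of Trpm3, Stard9 and Bsg, so each of their shares was the lowest possible at its k and the order of the 6 partly follows k.

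Of 36 related genes found in the table, 7 had a peak, or 19.4%, against 9.77% of all protein-coding genes, a difference that was not tested. None of the 7 was in all 4 lists. Slc16a1, the monocarboxylate transporter that basigin escorts to the membrane, had 1 Pyicoclip peak and 1 PIPE-CLIP cluster, both on its own strand, with a top score of 13. Among the other TRPM channels, Trpm7 had 1 PIPE-CLIP cluster of 10, and among partners of Spata5 or other AAA ATPases, Cinp had 1 of 11. Nsf and Stard13 had 1 Piranha and 1 Pyicoclip peak each, all on the strand opposite to the gene, with top scores of 16 and 13. Dlc1, which encodes a protein with a START domain, had 1 Pyicoclip peak and 2 PIPE-CLIP clusters, and the kinesin gene Kif16b had 1 cluster of 16. The 4 relatives or partners of Peak1 had 0.

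Pluripotency genes were the markers checked for the P19 label, with the caution that a peak is not an expression level. Peaks were present in 3 of 8, Pou5f1, Lin28a and Lefty1, and peaks of Lefty1 also lay in the span of Gm39715. Of 4 neural markers, Map2 had 1 PIPE-CLIP cluster, on the strand opposite to the gene, and the lists of 4 endoderm, 4 muscle and 4 fibroblast markers had 0 each. With 9.77% of all protein-coding genes holding a peak, a count of 0 or 1 in a list of 4 does not set these lists apart, so they say little about the label.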

How the data were processed

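RNA bound by AGO2 was analysed from 4 peak lists of 3 P19 libraries. RNA taken from nitrocellulose went into small RNA libraries and onto an Ion Proton sequencer, per the labels' protocols. The reads were handled with cutadapt and Novoalign and the build was mm10, per the submitters' processing notes. Settings of the callers and the way of pooling libraries: not given in the sources used here. The score in each list is the value the authors deposited, with no stated unit.

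Spans came from the RefSeq table of GRCm38.p6, and gene strands from its promoter table, which covers 17492 of 21900 protein-coding genes. All 6 genes were found by symbol. Peaks were joined into sites if they overlapped by at least 1 nt, strand ignored. Position runs along the gene (for Bsg, along the peaks). Named were the 6 genes, other genes at or near their peaks, and listed relatives with a peak. Of 43 listed relatives and members, 42 matched the table. One list of relatives is not reported here by name. The members and lists were chosen with earlier results of these data known, so no test was made. Alternatives covered assignment, merging, score, position and strand. On simulated data with a single site per gene and the same interval for each caller, planted sites, strands and positions were recovered. Neighbouring sites and callers that miss each other, as in Trpm3 and Spata5, were not simulated. Python 3.11.15, numpy 2.4.6, pandas 2.3.3, scipy 1.17.1 and matplotlib 3.10.9 were used.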

Additional observations from a re-analysis of the deposited data

How the results depend on the processing

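With peaks at or above the median score of each list alone, the spans held 25 peaks in place of 38, and 2 sites with all 4 callers, those of Bsg and Arhgap21, in place of 4. Sites in the last part of the gene numbered 1 of 12 with the last 10%, 0 with the last 5%, and 5, in Trpm3, Bsg and Peak1, with the last 20%. Joining peaks up to 100 nt apart gave 6 sites of all 4 callers. The number of peaks stayed at 38 with any overlap, spans widened by 5000 nt or peaks in no other span. The number of 4-caller sites stayed at 4 on the same strand only or where all 4 had to overlap each other. Read along the strand of the peak, 1 site was in the last 10%. The sense share was 72.7% by site, 70.6% for peaks in no other span and 68.0% without PIPE-CLIP. The median score percentile was 75.6% without mitochondrial and ribosomal peaks. No paired analysis was possible because there is 1 group and the lists hold no value per library, and leaving out a library was not possible for the same reason. The floor score of 10 limits what can be seen, and weaker peaks were not analysed here.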
